A study of Mus musculus with 12 samples.

Results

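Mitochondrial ribosomal protein genes are the nuclear genes whose mouse symbols begin with Mrpl or Mrps and a number. They were found by translating the accession of every non-control array probe to a mouse symbol through the RefSeq gene table. The brightest probe, by its mean over 12 arrays, stood for each gene. All 78 protein-coding genes of this naming pattern in the RefSeq table had a probe above background, and these 78 genes were described among 14705 genes tested. They lie on 17 chromosomes, with at most 11 on one. By the placement used here, 29 were filed as large-subunit proteins with a bacterial counterpart and 20 as large-subunit proteins found only in mitochondria. For the small subunit the numbers are 17 and 9. Mrpl47 is among the 20, although its protein belongs to the uL29 family, which has a bacterial counterpart. Mrps18a and Mrps30 carry a small-subunit name but are placed in the large subunit, and Mrps36 is now counted to the oxoglutarate dehydrogenase complex.

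Mitochondria keep their own ribosomes, which translate the few messages of the mitochondrial genome, all of them for subunits of the oxidative phosphorylation complexes. The ribosomal RNAs are made inside the organelle, whereas every ribosomal protein is encoded in the nucleus, translated in the cytosol and imported. T cells enlarge their mitochondria and raise mitochondrial translation when they are activated, so the expression of these genes is tied to growth in an activated T cell.

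Helper T cells were taken from C57BL/6 mice aged 7 weeks and activated for 65 hours on antibodies to CD3 and CD28, followed by 48 hours with IL-2. Electroporation took place on day 1 and again on day 4, and RNA was taken on day 5, when the last transfection lay 24 hours back. The 4 groups, with 3 mice each, were DGCR8-deficient cells given miR-29b, DGCR8-deficient cells given a control miRNA, wild type cells given miR-29 inhibitors, and wild type cells given control inhibitors. DGCR8 is the partner of the nuclease Drosha in the first step of microRNA processing, so cells without it lack most microRNAs; how the gene was removed is not given in the sources used here. Cells of each mouse, numbered 2, 3 and 4 within a genotype, gave both arrays of that genotype. Levels are log2 of the background-subtracted Agilent signal minus the 75th percentile of the same array, and equal amounts of labelled RNA were hybridised. A level is therefore a share of the sample's RNA and not an amount per cell. Adjusted p-values come from limma, with the Benjamini-Hochberg method run on all 14705 genes. A gene passed at an adjusted p under 0.05. Without a block, the p-values rest on the spread between arrays within the 4 groups, as if both arrays of a mouse were independent. With the mouse as a block, they rest on the spread of the differences within mice.

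The levels of Dgcr8 were -0.67, -1.13 and -0.35 in DGCR8-deficient cells with miR-29b and -0.75, -1.25 and -0.15 in DGCR8-deficient controls. In wild type cells they were -0.06, 0.74 and -0.14 with inhibitors and -0.16, 1.005 and 0.20 in the controls. The control groups touched, and the difference of -1.06 ± 0.39 (SE) missed the threshold (adjusted p = 0.0754). Where the probe lies relative to the deleted part is not given in the sources used here. The median level of Y-linked genes was -7.94 and -8.63 on both arrays of DGCR8-deficient mouse 3, against -0.36 to 0.78 on the other 10 arrays. The miR-29b array of that mouse had 1458 spots marked as outliers, against 68 to 193 on the others. All 12 arrays had 27287 to 31405 probes well above background and 0 saturated spots. Slide 4, which held all arrays of DGCR8-deficient mouse 4 and of wild type mouse 3, was scanned on a different day from the other 3 slides.

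The agent in the DGCR8-deficient cells was miR-29b, whose family shares 1 seed, the bases that pair with target messages. The mature sequences from RefSeq (GRCm38.p6) are shown with this seed, bases 2 to 8, in capitals. Matches to the seed in the members' transcripts are not reported here.
mmu-miR-29a-3p: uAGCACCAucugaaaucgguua
mmu-miR-29b-3p: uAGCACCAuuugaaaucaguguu
mmu-miR-29c-3p: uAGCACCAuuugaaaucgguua

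Because the members moved together between genotypes, their promoters were read from RefSeq (GRCm38.p6). They run from 250 bases before to 50 bases after each start. Of the 78 genes, 69 had an entry. The letters searched, on both strands, were TGCGCA (the core of the NRF1 site, which reads the same on both strands), CCGGAAG (an ETS core of the kind GABPA binds) and AAGATGGC (a YY1 core). These factors are textbook regulators of nuclear genes for mitochondria. The NRF1 core stood in 21 members, or 30.4%, and in 8.79% of all 27025 genes with an entry. The ETS core stood in 26 members, or 37.7%, and in 9.93% of all genes. The YY1 core stood in 12 members, or 17.4%, and in 3.19% of all genes. The shares of all genes in this paragraph count every gene with an entry, including genes that were not tested on the arrays. Shares among the tested genes, or among genes with promoters of like base content, were not counted. Whether the cores are more frequent in members than in other expressed genes was therefore not tested. A match of letters is a description and not a binding site. Below are the 250 bases before the start, 5′ to 3′ on the gene's strand, for the 4 members with the smallest p in the genotype comparison that hold one of these cores there, with the cores in capitals. They lie at chr19:4962056-4962305 (Mrpl11), chr5:129715247-129715496 (Mrps17), chr11:97041332-97041581 (Mrpl10) and chr7:78782881-78783130 (Mrps11), each on the plus strand.
Mrpl11: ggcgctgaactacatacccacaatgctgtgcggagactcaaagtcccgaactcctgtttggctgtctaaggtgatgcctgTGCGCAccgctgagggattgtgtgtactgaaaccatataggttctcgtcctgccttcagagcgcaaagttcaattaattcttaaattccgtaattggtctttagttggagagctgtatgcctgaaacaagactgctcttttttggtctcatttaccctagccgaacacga
Mrps17: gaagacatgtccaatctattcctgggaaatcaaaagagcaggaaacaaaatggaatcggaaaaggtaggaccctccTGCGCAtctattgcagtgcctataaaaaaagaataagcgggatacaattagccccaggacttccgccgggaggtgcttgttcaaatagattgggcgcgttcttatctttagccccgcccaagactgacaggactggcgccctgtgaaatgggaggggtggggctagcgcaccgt
Mrpl10: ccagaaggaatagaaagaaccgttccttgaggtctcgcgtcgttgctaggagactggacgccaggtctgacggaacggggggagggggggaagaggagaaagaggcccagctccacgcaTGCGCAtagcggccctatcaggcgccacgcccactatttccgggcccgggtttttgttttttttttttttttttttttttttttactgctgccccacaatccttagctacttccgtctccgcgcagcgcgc
Mrps11: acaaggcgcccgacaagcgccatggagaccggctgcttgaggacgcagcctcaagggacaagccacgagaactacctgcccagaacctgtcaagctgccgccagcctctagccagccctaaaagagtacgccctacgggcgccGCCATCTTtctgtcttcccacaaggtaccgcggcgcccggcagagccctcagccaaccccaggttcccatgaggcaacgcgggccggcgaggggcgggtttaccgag

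The first comparison set DGCR8-deficient controls against wild type controls. Transcripts of mitochondrial ribosomal protein genes were lower in the DGCR8-deficient cells nearly throughout the set. Of 78 genes, 41 were lower past the threshold, or 52.6%, against 13.0% of all genes tested, and 0 were higher, against 9.26%. The difference was negative for 77 of 78 members, against 56.0% of all genes. Its median was -0.74 over the members, that is 1.67-fold lower, and -0.08 over all genes tested. The genotypes also received different kinds of control oligonucleotide, so genotype and kind of control cannot be told apart.

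The array medians of the 78 genes were 2.16, 2.30 and 2.08 in DGCR8-deficient controls, against 2.96, 3.09 and 3.02 in wild type controls. The treated arrays of the same mice had 2.43, 2.27 and 2.00 in DGCR8-deficient cells with miR-29b, against 3.00, 2.93 and 3.09 in wild type cells with inhibitors. Every DGCR8-deficient array thus had a lower median than every wild type array, while the median of all genes stayed between -0.66 and -0.50 on the 12 arrays. For 59 members (75.6%) the 3 DGCR8-deficient control arrays all lay below the 3 wild type control arrays, against 22.1% of all genes. For 49 members (62.8%) all 6 DGCR8-deficient arrays lay below all 6 wild type arrays, against 13.7% of all genes.

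**Figure D1:**
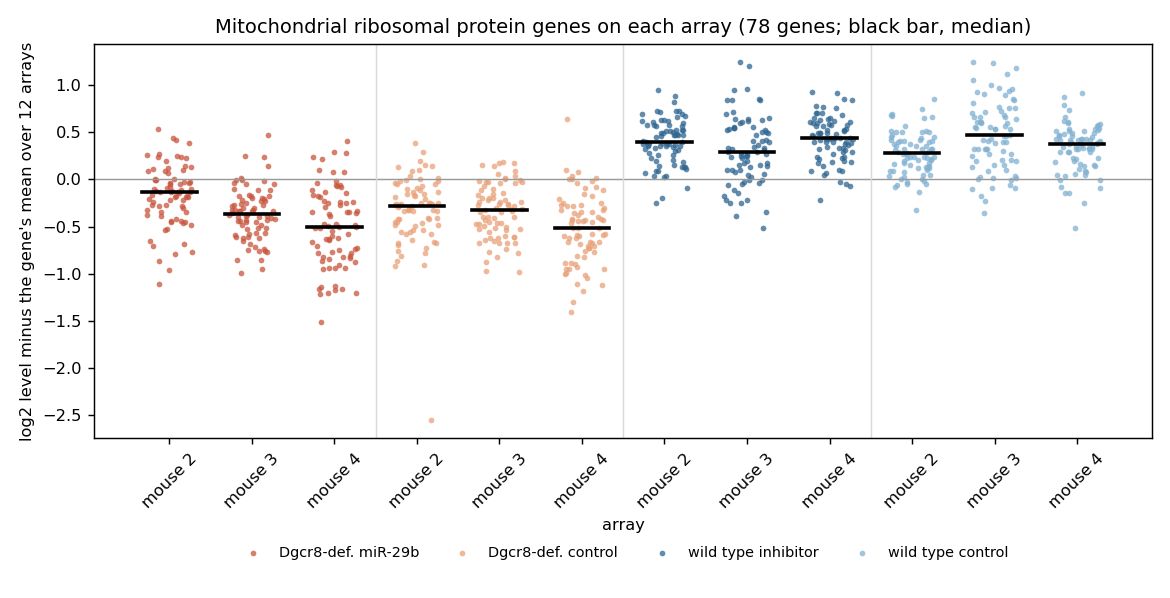
Each point is 1 of 78 mitochondrial ribosomal protein genes on 1 array, as its log2 level minus its own mean over 12 arrays; black bars are medians over genes, and the 4 groups run from left to right with the DGCR8-deficient cells first. The DGCR8-deficient arrays lie mostly below 0 and the wild type arrays mostly above it, and the single point near the bottom in DGCR8-deficient control mouse 2 is Mrps12.

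In bulk RNA, fewer cells of a type and less of a transcript per cell cannot be told apart, and other cell types moved with the genotype. The summed linear level of 7 B cell markers was 4.45 to 9.61 in DGCR8-deficient controls, against 0.39 to 0.53 in wild type controls, in units of each array's 75th percentile. Of these markers 6 of 7, all but Pax5 (0.00), were higher past the threshold, among them Ms4a1 (5.86 ± 0.57, adjusted p = 8.1e-05), the B cell surface protein CD20, and Cd79b (3.83 ± 0.34, adjusted p = 4.6e-05), part of the B cell receptor. Of 5 NK cell markers only Tyrobp, a signalling adaptor also of myeloid cells, was higher past the threshold (2.55 ± 0.64, adjusted p = 0.0158). The 7 measured myeloid and dendritic markers summed to 0.30 to 0.59 in DGCR8-deficient controls and to 0.73 to 1.34 in wild type controls. The 12 CD4 T cell markers summed to 475 to 485 in DGCR8-deficient controls and to 543 to 674 in wild type controls, with Lck and Lat, both needed for T cell receptor signalling, lower and the co-receptor Cd28 higher. Of the myeloid markers the dendritic integrin Itgax was higher (2.61), and Adgre1 (-2.72) and Fcgr3 (-2.23), both of macrophages, were lower. Cd14 (0.20), Itgam (0.46), Flt3 (0.34) and Csf1r (-0.15) did not pass. Fcgr3 was the brightest of the 7 in wild type controls (mean level -0.50, next Adgre1 at -3.34), so the myeloid sum mostly follows Fcgr3. Of 4 erythroid and platelet markers 0 passed, and the CD8 T cell marker Cd8a differed by 0.26 (adjusted p = 0.712). The part of these cell types in the members' difference was not tested.

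Among the 29 members filed as large-subunit proteins with a bacterial counterpart, 18 were lower in DGCR8-deficient controls, against 13.0% of all genes. The median difference of the 29 was -0.78. Mrpl33, a small protein of the bL33 family, had levels of 4.26, 4.61 and 4.13 in DGCR8-deficient controls, against 5.92, 6.14 and 6.05 in wild type controls. The groups stood more than 1 log2 unit apart, and the difference was -1.70 ± 0.18 (adjusted p = 1.1e-04), or 3.25-fold lower. The proteins of the factor-binding stalk, which recruits translation factors to the ribosome, were also low. Mrpl11, of the stalk base, had 2.64, 2.90 and 2.31 in DGCR8-deficient controls, against 3.93, 4.08 and 4.08 in wild type controls. Its difference was -1.41 ± 0.21 (adjusted p = 8.5e-04). Mrpl10, which carries the stalk, had 1.47, 1.64 and 1.34 in DGCR8-deficient controls, against 2.37, 2.45 and 2.47 in wild type controls. Neither gene overlapped between the groups, and Mrpl10 differed by -0.95 ± 0.15 (adjusted p = 0.00145). Mrpl12, the stalk protein itself, averaged 3.20 ± 0.32 in DGCR8-deficient controls and 4.33 ± 0.10 in wild type controls (SD, n = 3 each), a difference of -1.12 (adjusted p = 0.00443 by limma).

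Other members of this class were lower by less. Mrpl2, a core protein close to the peptidyl transferase centre, differed by -0.94 ± 0.19 (adjusted p = 0.00473). Mrpl4, of the uL4 family that lines the exit tunnel, differed by -0.83 (adjusted p = 0.00694). Mrpl20, a ribosomal RNA binding protein, differed by -0.79 (adjusted p = 0.0428), Mrpl9 by -0.78 (adjusted p = 0.0325), and Mrpl27, whose bacterial counterpart reaches toward the catalytic centre, by -0.62 (adjusted p = 0.00885). Several members missed the threshold while pointing the same way. Mrpl28 differed by -0.82 (adjusted p = 0.0756), Mrpl17 by -0.75 (adjusted p = 0.146), Mrpl32 by -0.68, Mrpl15 by -0.64 (adjusted p = 0.132), Mrpl16 by -0.48, Mrpl3 by -0.43 and Mrpl1 by -0.43. For 2 of these the probes of the gene disagreed. A dimmer probe of Mrpl1 gave 0.10, and a dimmer probe of Mrpl17, well above background on 6 arrays, gave 0.96.

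Of the 20 members filed as large-subunit proteins found only in mitochondria, 10 were lower, against 13.0% of all genes. The median of the 20 was -0.70. Mrpl42 had 1.90, 1.93 and 2.08 in DGCR8-deficient controls, against 3.16, 3.78 and 3.17 in wild type controls, a difference of -1.40 ± 0.19 (adjusted p = 5.2e-04). Mrpl49 had 1.54, 1.42 and 1.21 in DGCR8-deficient controls, against 2.87, 3.01 and 2.69 in wild type controls. The groups did not overlap for either gene, and Mrpl49 differed by -1.47 ± 0.18 (adjusted p = 3.1e-04). Its 2 dimmer probes gave -0.43 and -0.52. Lower by less were Mrpl40 (-0.86, adjusted p = 0.00639), Mrpl48 (-0.80, adjusted p = 0.00274), Mrpl54 (-0.79), Mrpl41 (-0.71, adjusted p = 0.0347) and Mrpl57 (-0.69, adjusted p = 0.0248). Mrpl45, which lies at the exit tunnel and helps hold the ribosome at the inner membrane, differed by -0.84 ± 0.33 without passing (adjusted p = 0.0998). Its second, dimmer probe gave -1.14, with an adjusted p of 0.0156 in a limma fit over probes, where the brighter probe had 0.125. Mrpl47 differed by -0.50 (adjusted p = 0.13), Mrpl37 by -0.35, Mrpl44, which has a ribonuclease III fold, by -0.29, and Mrpl38, part of the central protuberance, by -0.13 (adjusted p = 0.721).

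Mrpl53, placed near the stalk, was the exception in the set. Its levels were 3.81, 3.69 and 3.44 in DGCR8-deficient controls, against 3.20, 3.34 and 3.27 in wild type controls. All 3 DGCR8-deficient controls were above all 3 wild type controls, with a difference of 0.37 ± 0.16 that missed the threshold (adjusted p = 0.126). Over 25 alternatives its difference ran from 0.29 to 0.69, and it passed as higher in 4 of them: quantile normalization, the authors' deposited log2 table, scan day as a block, and the treated arrays.

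**Figure D2:**
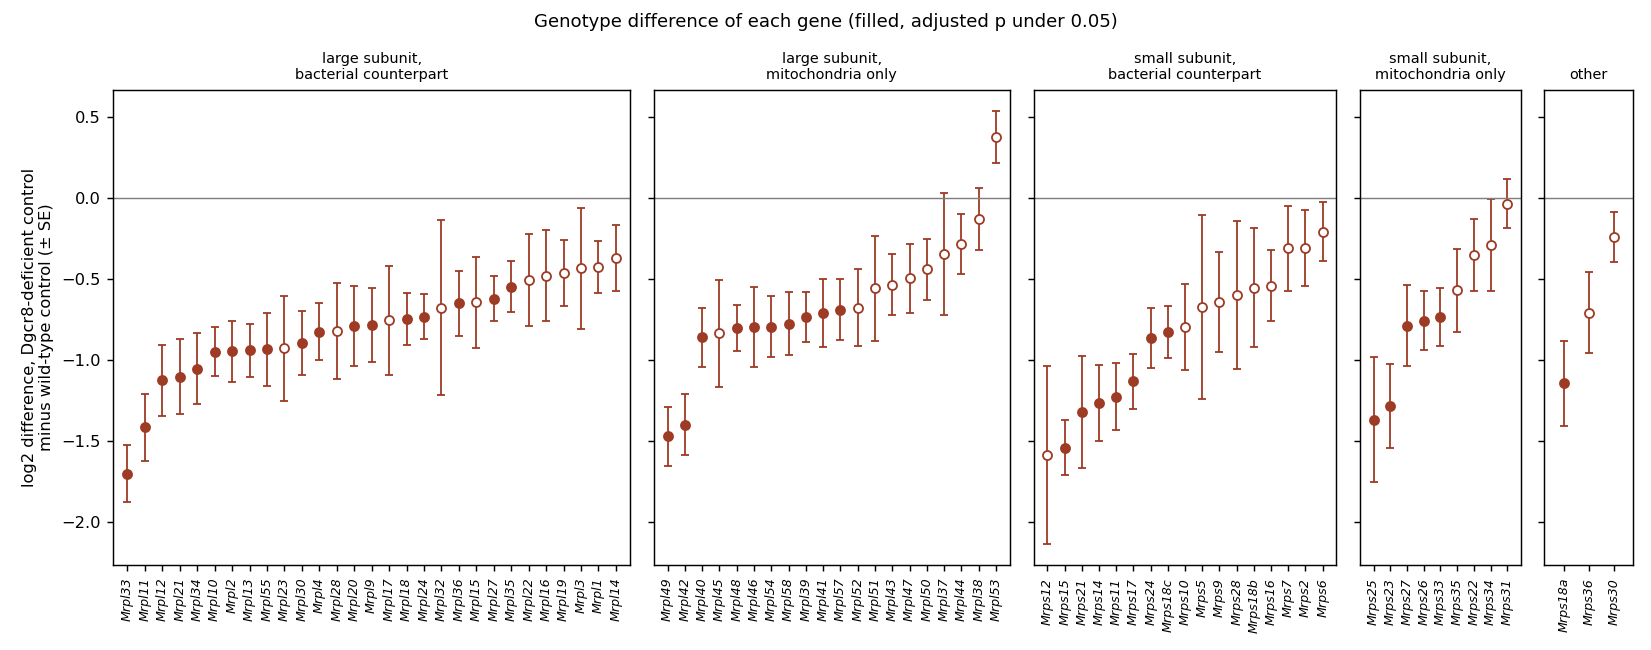
Each point is the log2 difference of 1 gene, DGCR8-deficient control minus wild type control, with its SE from limma (n = 3 arrays a group), in panels by placement in the ribosome; filled points passed the adjusted p threshold of 0.05. All genes but Mrpl53 lie below 0, and Mrpl33 and Mrps12 lie lowest.

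For small-subunit proteins with a bacterial counterpart, 7 of 17 were lower, against 13.0% of all genes. The median of the 17 was -0.80. Mrps15, which binds ribosomal RNA early in assembly in bacteria, had 1.61, 1.62 and 1.29 in DGCR8-deficient controls, against 2.98, 3.26 and 2.92 in wild type controls. Its difference of -1.54 ± 0.17 (adjusted p = 1.6e-04) was larger than the spread within groups. Mrps21 differed by -1.32 ± 0.34 (adjusted p = 0.0193), Mrps14 by -1.26 ± 0.24 (adjusted p = 0.00343), Mrps17 by -1.13 ± 0.17 (adjusted p = 9.2e-04) and Mrps18c by -0.83 ± 0.16 (adjusted p = 0.00438). Mrps11, of the platform that holds the messenger RNA, had 0.52, 0.33 and 0.12 in DGCR8-deficient controls, against 1.51, 1.57 and 1.57 in wild type controls. It differed by -1.23 ± 0.21 (adjusted p = 0.00198).

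Mrps12, the decoding-centre protein whose bacterial counterpart sets accuracy, owed much of its difference to 1 array. Its levels were 0.47, 2.74 and 2.93 in DGCR8-deficient controls, against 3.44, 4.13 and 3.31 in wild type controls. The groups did not overlap, yet the difference of -1.58 ± 0.55 missed the threshold (adjusted p = 0.0634). Without the DGCR8-deficient control of mouse 2 the difference was -0.80 (adjusted p = 0.0965). Other members of this class also missed the threshold. Mrps5, at the messenger RNA entrance, had 2.54, 2.53 and 0.99 in DGCR8-deficient controls, against 3.05, 2.04 and 2.98 in wild type controls, and the groups overlapped. Mrps9 differed by -0.64, Mrps28 by -0.60, Mrps18b by -0.55, Mrps16 by -0.54 (adjusted p = 0.111), Mrps7 by -0.31, Mrps2 by -0.31 and Mrps6 by -0.21. In the limma fit over probes, the dimmest probe of Mrps5 gave -0.76 (adjusted p = 0.0446). The dimmer probe of Mrps9 gave -0.60 there (adjusted p = 0.0467). The remaining probe of Mrps5 gave -0.84 without passing (adjusted p = 0.14 in that limma fit).

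Of the small-subunit proteins found only in mitochondria, 5 of 9 were lower, against 13.0% of all genes. The median of the 9 was -0.74. Mrps25 had -0.82, 0.20 and -1.25 in DGCR8-deficient controls, against 0.90, 0.37 and 0.96 in wild type controls, a difference of -1.37 ± 0.39 (adjusted p = 0.0273). Its second probe gave -0.07, so its size depends on the probe. Mrps27, a pentatricopeptide-repeat protein, differed by -0.79 (adjusted p = 0.0452). Mrps35 (-0.57), Mrps22 (-0.35) and Mrps34 (-0.29) missed the threshold. Mrps31 had 2.10, 2.18 and 2.29 in DGCR8-deficient controls, against 2.24, 2.35 and 2.10 in wild type controls. The groups overlapped and the difference was -0.04 ± 0.15, the nearest to 0 of all members. Among the renamed genes, Mrps18a differed by -1.14 ± 0.26 (adjusted p = 0.0103), Mrps36 by -0.71 (adjusted p = 0.0676) and Mrps30 by -0.24 (adjusted p = 0.319). The 3 genes of the Mrps18 family thus had differences of -1.14, -0.55 and -0.83 in the order a, b and c. Over all 28 members with more than 1 probe, 25 had negative differences at every probe.

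Within slide 2, which held both genotypes, the median over members was -0.53 (DGCR8-deficient mouse 2 minus wild type mouse 2), against -0.17 over all genes. There 75 of 78 members were negative. Within slide 4 the median over members was -1.01, against -0.10 over all genes, with 77 of 78 members negative. The share of all genes that was negative within a slide was not counted. With the slide as a block, 60 members were lower, against 25.5% of all genes, and 0 higher, against 16.3%. Slide 1 held only wild type mouse 4, and slide 3 only DGCR8-deficient mouse 3. The genotype difference in that fit therefore rests on slides 2 and 4. With the scan day as a block 66 were lower, against 24.2% of all genes, and 1 higher, against 15.5%. With the mouse as a random block, 39 were lower, against 11.9% of all genes. Without both arrays of DGCR8-deficient mouse 3, 35 members were lower, against 12.5%. When the treated arrays of the same mice took the place of the controls, 43 members were lower, against 14.8% of all genes, and 1 higher, against 10.2%. Of these, 37 were among the 41, a count that rests on the same 6 mice.

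The other genes of mitochondrial translation were compared in the same fit, in which 13.0% of all genes tested were lower and 9.26% higher. Of 5 ribosome components without an Mrp symbol, Dap3, a GTP-binding small-subunit protein, had a difference of -0.83 (adjusted p = 0.00613) and Aurkaip1 of -0.56 (adjusted p = 0.0192), while Chchd1 (-0.99), Gadd45gip1 (0.09) and Ptcd3 (0.05) missed the threshold. Of 21 genes for ribosome assembly and ribosomal RNA modification, 8 were lower and 0 higher, with a median of -0.62. Mtg1, a GTPase of large-subunit assembly, differed by -1.70 ± 0.16 (adjusted p = 6.8e-05), and Mrm1, a ribosomal RNA methyltransferase, by -1.57 ± 0.29 (adjusted p = 0.00317). Of 16 translation factors 6 were lower, with a median of -0.22. Tsfm, the exchange factor of the elongation factor Tufm, differed by -0.88 (adjusted p = 0.00952) and Tufm by -0.64 (adjusted p = 0.123), but Mtif2, Mtif3, Gfm1 and Gfm2 lay between -0.27 and -0.02.

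Of 19 mitochondrial aminoacyl-tRNA synthetases and related genes, 5 were lower, against 13.0% of all genes. The median of the 19 was -0.62, with Wars2 lowest at -1.63 ± 0.19 (adjusted p = 2.1e-04 by limma). Of 10 genes of mitochondrial DNA transcription and replication 3 were lower, among them Tfam, which packages mitochondrial DNA (-0.66, adjusted p = 0.0133). The members thus stood beside 37 of 80 oxidative phosphorylation genes and 32 of 78 cytosolic ribosomal protein genes that were lower, against 13.0% of all genes. The medians of these lists were -0.66 and -0.67. Of 9 regulators of mitochondrial gene expression 2 were higher, against 9.26% of all genes, and 0 lower past the threshold. The median of the 9 was -0.01, with 5 of 9 negative. Esrra, a nuclear receptor, was higher by 1.09 ± 0.16 (adjusted p = 8.3e-04), and Ppargc1b, a coactivator of the PGC-1 family, by 1.21 ± 0.19 (adjusted p = 0.00145). Nrf1 (-0.06 ± 0.48), Gabpa (0.18 ± 0.29) and Yy1 (-0.01 ± 0.41) did not pass. Their SEs are wide, so these values do not show that the 3 genes were unchanged. Myc differed by -0.98 ± 0.63 (adjusted p = 0.329).

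**Figure D3:**
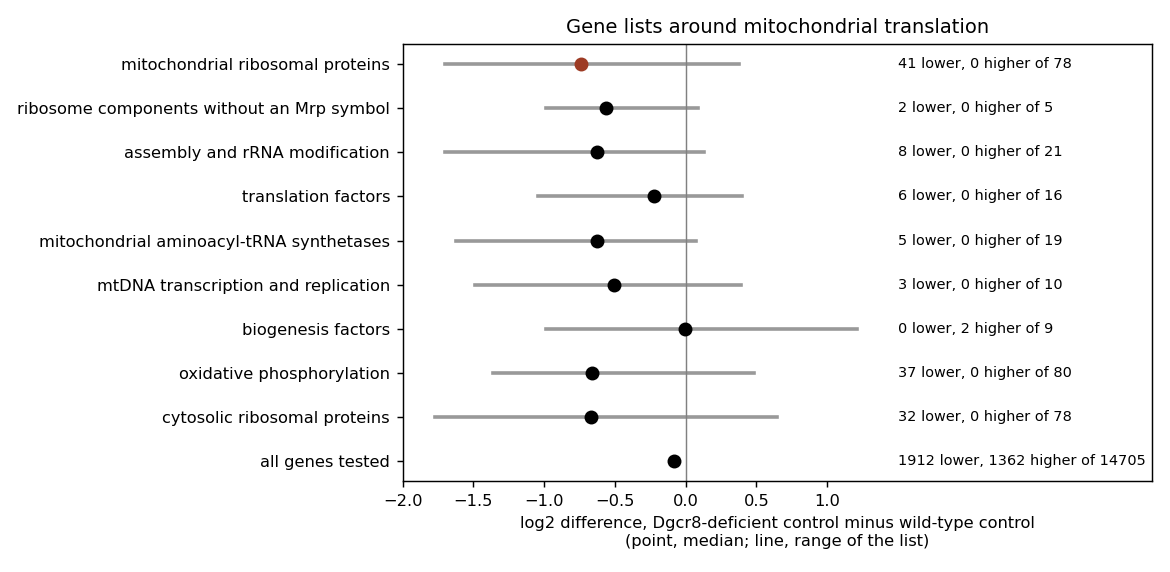
For each gene list, the point is the median log2 difference, DGCR8-deficient control minus wild type control, and the line runs from the lowest to the highest gene (no line is drawn for all genes tested); the counts at the right are genes past an adjusted p of 0.05. The mitochondrial ribosomal proteins lie at -0.74 and all genes tested at -0.08.

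Members with and without a promoter core had close medians in the genotype comparison. Members with the NRF1 core had a median of -0.75, as did the 48 without it. The medians were -0.75 with and -0.78 without the ETS core, and -0.83 with and -0.75 without the YY1 core. Some members share their start region with a gene on the opposite strand, and 22 members had such a partner among the genes tested. Mrpl46 and Mrps11 are partners of each other, and both were lower (-0.80 and -1.23). The other 20 partners had a median of -0.26, with 15 negative, 3 lower and 2 higher past the threshold. Of all genes tested, 56.0% were negative, 13.0% lower and 9.26% higher. Mrpl49 differed by -1.47, against -0.27 for its partner Fau, which encodes a cytosolic ribosomal protein. Mrpl48 was lower (-0.80), whereas its partner Rab6a, a Golgi trafficking GTPase, was higher (0.52, adjusted p = 0.0274). Mrps12 and its partner Sars2, the mitochondrial seryl-tRNA synthetase, had -1.58 and -0.49.

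The second comparison asked what miR-29b changed in DGCR8-deficient cells, with each mouse giving both arrays. Without the mouse as a block, 0 of 78 members passed the threshold, against 2.30% of all genes in either direction, 0.891% higher and 1.41% lower. At an unadjusted p under 0.05 there were 4 members, against 14.1% of all genes. The median difference was 0.03 over the members and 0.07 over all genes. With the mouse as a block, 4 members were higher and 4 lower, or 10.3% in either direction, against 20.7% of all genes, 10.6% higher and 10.1% lower. The members' share was therefore below that of all genes. With the scan day as a block 2 were higher, against 5.62% of all genes, and 2 lower, against 6.75%. With the slide as a block 5 passed in either direction, against 16.9% of all genes, and with the mean of a gene's probes and no block 1 passed, against 2.13%. Within mice the median over members was 0.16, -0.04 and -0.0049 in mice 2, 3 and 4. The difference had the same sign in 3 of 3 mice for many members: 27 were higher (34.6%, against 33.1% of all genes) and 15 were lower (19.2%, against 22.8%).

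The 4 members that were higher with the block differ in place and role. Mrpl45 had 3.70, 3.55 and 3.03 with miR-29b, against 2.99, 2.96 and 2.12 in the controls of mice 2, 3 and 4. It was higher in every mouse, by 0.71, 0.59 and 0.91, with an adjusted p of 0.00624 with the block and 0.347 without it. Its second probe gave 0.82. Mrpl54 had 3.61, 3.27 and 3.40 with miR-29b, against 3.19, 2.81 and 2.74 in the controls, a mean difference of 0.51 (adjusted p = 0.0192 with the block). Mrpl10 differed by 0.55, 0.29 and 0.35 in the 3 mice (adjusted p = 0.0298 with the block), and Mrps14 by 0.25, 0.33 and 0.66 (adjusted p = 0.0473 with the block).

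The 4 members that were lower with the block were all of the large subunit, as are most members. Among the 4 higher ones, Mrpl45, Mrpl54 and Mrpl10 are of the large subunit too. Mrpl37 had 0.32, 0.24 and -0.75 with miR-29b, against 1.15, 0.94 and 0.18 in the controls. It was lower in every mouse, by -0.83, -0.69 and -0.93 as differences, with an adjusted p of 0.00624 with the block and 0.367 without it. Mrpl27 had 3.38, 3.16 and 3.28 with miR-29b, against 3.72, 3.56 and 3.76 in the controls, and these groups did not overlap (difference -0.41, adjusted p = 0.0203 with the block). Mrpl32, which is processed by the m-AAA protease before assembly, differed by -0.47, -0.18 and -0.35 (adjusted p = 0.0482 with the block). Mrpl15 differed by -0.41, -0.30 and -0.26 (adjusted p = 0.0384 with the block). With any 1 mouse left out, the block left 2 members past the threshold, Mrpl45 and Mrpl37, against 7.64%, 12.4% and 5.71% of all genes without mice 2, 3 and 4.

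**Figure D4:**
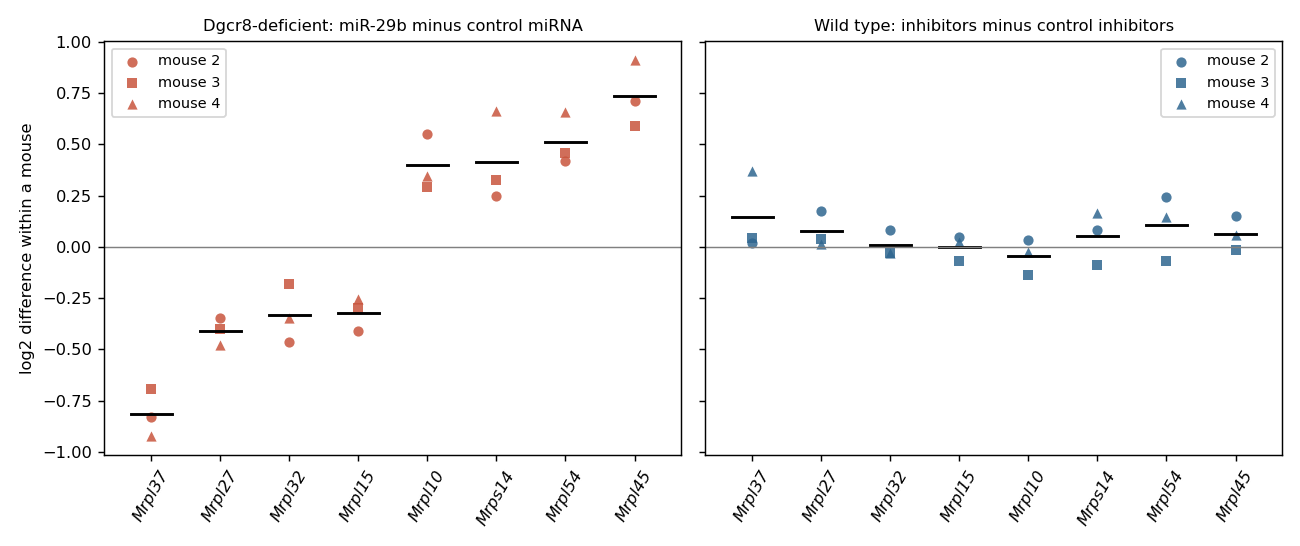
For the 8 members past the threshold with the mouse as a block, points are log2 differences within a mouse and bars are means of 3 mice, on the left for miR-29b minus control miRNA in DGCR8-deficient cells and on the right for inhibitors minus control inhibitors in wild type cells. On the left the 3 mice agree in sign for all 8 genes; on the right the means lie between -0.04 and 0.14.

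Other named members did not pass in either fit. Mrpl20 differed by -0.34 and Mrpl17 by -0.30, both lower in 3 of 3 mice. Mrps18b differed by 0.62 and was higher in 3 of 3 mice (adjusted p = 0.0608 with the block). Mrps12 had the most positive mean of the 78 genes, at 0.76, but its within-mouse differences were 2.34, -0.02 and -0.05, and without the DGCR8-deficient control of mouse 2 it was -0.03. The CD4 T cell markers summed to 608 to 651 with miR-29b, against 475 to 485 in the controls, and their part in these differences was not tested. The cytosolic ribosomal proteins had a median of 0.30 in this comparison, with 72 of 78 positive and 0 past the threshold, and the oxidative phosphorylation genes had 0.04, with Cox6b2 the 1 gene past it.

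The third comparison set miR-29 inhibitors against control inhibitors in wild type cells. By limma 0 members passed the threshold, as did 0% of all genes, with or without the mouse as a block. At an unadjusted p under 0.05 there were 0 members in either fit, and 63 of all genes without the block and 504 with it. The median over members was 0.03 and over all genes 0.02, and the largest mean difference of a member was 1.13-fold. Those most positive were Mrpl37 (0.14), Mrpl48 (0.14), Mrpl9 (0.13), Mrpl4 (0.12) and Mrps11 (0.11), and those most negative Mrpl17 (-0.18), Mrps2 (-0.10), Mrps31, Mrps25 and Mrps15 (each -0.07).

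The members shifted together within each wild type mouse, but not the same way in all 3. In mouse 2 the difference was positive for 72 of 78 members, with a median of 0.12, and in mouse 4 for 69, with a median of 0.08. In mouse 3 it was negative for 68, with a median of -0.14. The median of all genes was 0.06, 0.00 and 0.02 in mice 2, 4 and 3. Only 9 members were higher in 3 of 3 mice (11.5%, against 14.3% of all genes) and 0 were lower (against 8.42%).

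The effects of miR-29b and of the inhibitors were then compared as a difference of differences. Without the block 0 members passed, against 0.170% of all genes (0.0136% higher and 0.156% lower). With the block 2 passed, against 5.71% (1.88% higher and 3.83% lower), as did 2 with the slide as a block, against 4.10%. Mrpl45 was higher with miR-29b relative to the inhibitor effect by 0.67 (SE 0.13 with the block, adjusted p = 0.0431), and Mrpl37 lower, at -0.96 (SE 0.15 with the block, adjusted p = 0.0247). For Mrpl45 the inhibitor differences were 0.15, -0.02 and 0.06 in the 3 wild type mice, and for Mrpl37 they were 0.02, 0.04 and 0.37.

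**Figure D5:**
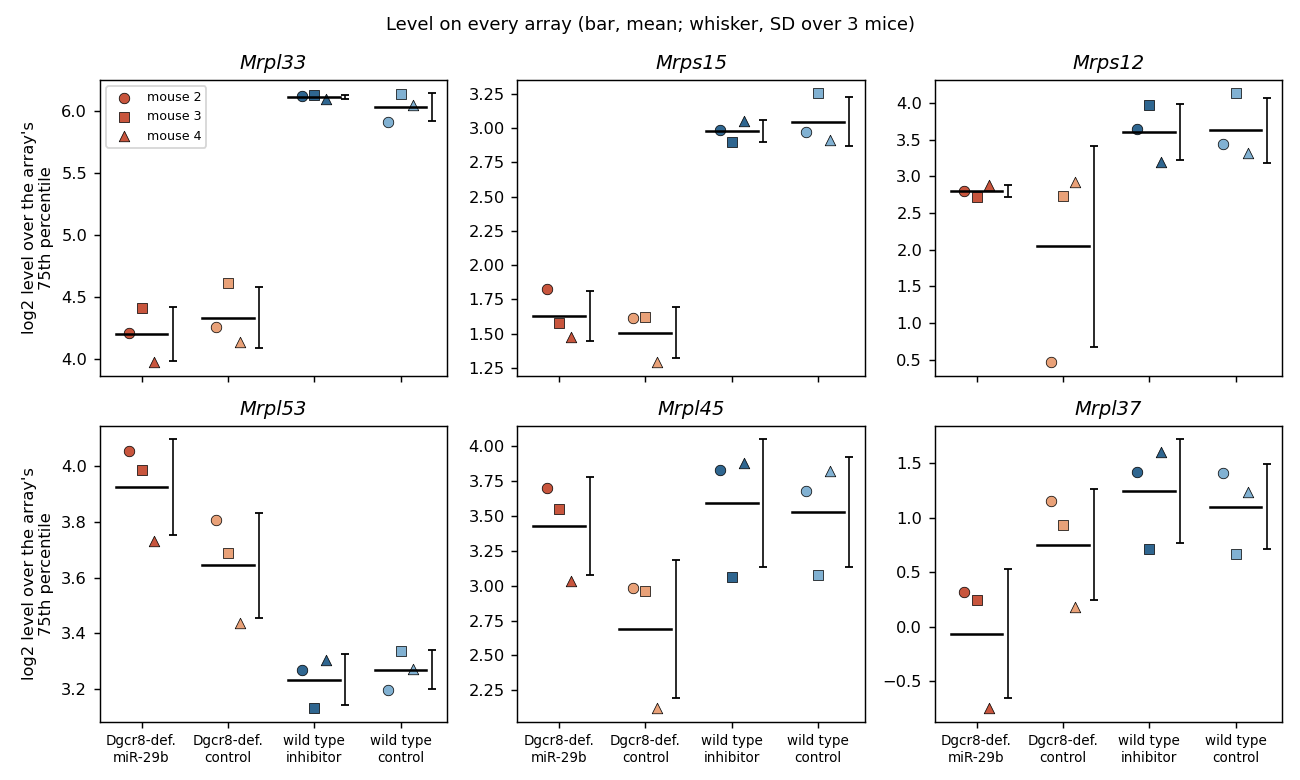
Levels of 6 members on every array, as log2 signal over the array's 75th percentile; symbols are mice, bars means and whiskers SD over 3 mice, and each panel has its own axis, which does not start at 0. Mrpl33 and Mrps15 separate by genotype, Mrps12 has 1 low control array, Mrpl53 is higher in DGCR8-deficient cells, and Mrpl45 and Mrpl37 move in opposite directions with miR-29b.

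Some members varied with the mice of slide 4, Mrps5 and Mrpl32 by more than with genotype (-0.67 and -0.68). For Mrps21 and Mrps25 the genotype differences (-1.32 and -1.37) were larger than the slide 4 shifts. Set against the other 2 mice of their group, the arrays on slide 4 were higher by more than 0.5 in all 4 groups for Mrpl32, Mrpl51 and Mrps21. They were lower by more than 0.5 in all 4 groups for Mrpl37, Mrpl45, Mrps25, Mrps5 and Mrps9. Mrps5 differed by -1.43 with miR-29b, -1.55 in DGCR8-deficient controls, -1.28 with inhibitors and -0.98 in wild type controls. Mrpl32 differed by 1.32, 1.35, 1.16 and 1.22 in the same order. Over the 78 genes, these differences in DGCR8-deficient and in wild type controls correlated at 0.83 (Pearson), and the points share slide and scan day. For Mrpl45 and Mrps25 the second probe ran the other way. That of Mrpl45 had -1.06 on slide 4, against -1.37 and -1.58 in the other DGCR8-deficient controls, and that of Mrps25 had -1.54, against -2.39 and -2.35. The probes of Mrps5 disagreed too. Its dimmest probe had 0.16 on slide 4, against -0.31 and -0.41 in the other wild type controls. In DGCR8-deficient controls that probe had -0.89 on slide 4, against -0.84 and -1.13. The remaining probe of Mrps5 was lower on slide 4 in both control groups. Mouse, slide and scan day cannot be told apart for the arrays of slide 4.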

How the data were processed

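Per the file headers, the deposited spot intensity is Agilent Feature Extraction 10.5.1.1 output with background subtracted and no scaling between arrays. The authors' deposited log2 table, for which the submitters' processing notes name limma, was used only as an alternative. The signal was converted to log2, each array's 75th percentile was subtracted, spots marked as outliers were left out, and spots of 1 probe were averaged. Probes well above background on at least 3 of 12 arrays were kept (32200 of 41174), and 14705 genes had a kept probe. Of 41174 probes, 24844 were named by 1 gene.

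All 12 arrays entered 1 fit of 4 groups in limma 3.58.1 (R 4.3.3), with both arrays of a mouse treated as independent; fits with the mouse, slide or scan day as a block were alternatives. The pairing comes from the series' design text, which gives both conditions to cells of a mouse, with the number in a title read as the mouse. Residuals of such pairs correlated at 0.611 to 0.747 for the 3 DGCR8-deficient mice and at 0.418 to 0.726 for the 3 wild type mice. Both arrays of a mouse share a slide, and arrays of different mice on 1 slide correlated at 0.202 to 0.407 (slide 2) and 0.531 to 0.684 (slide 4), so these values do not separate mouse from slide. The fits were also run on simulated arrays, with an outcome that is not given here. Those arrays held mouse effects but no slide or scan day effect, so they do not cover the slide structure above. The members, gene lists and named genes were chosen with earlier results of these data known. Named members are those past the threshold in a comparison (at most the 8 with the smallest p in each direction), the 5 most positive and 5 most negative in each of the first 3, those of most and least spread, brightest and dimmest, those whose probes disagree, and members with defined roles.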

Additional observations from a re-analysis of the deposited data

How the results depend on the processing

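With only 3 mice a group, the number of arrays limits precision. In the miR-29b comparison 0 members passed with no block, 8 with the replicate block (20.7% of all genes), 5 with slide (16.9%) and 4 with scan day (12.4%) as a block, and 1 with the mean of a gene's probes (2.13%). Leaving out arrays or mice gave 0 to 2 members, and medians of -0.0672 to 0.1432. In the difference of effects, 2 passed with each of the mouse (5.71% of all genes), slide (4.10%) and scan day (3.02%) blocks and 0 with no block. In the genotype comparison 41 members passed with no block, 67 with scan day as a block, and 30 to 60 in the other alternatives; 31 to 44 passed when arrays or a mouse were left out. Its median lay between -0.81 and -0.64 in all 25 alternatives. Of the 41, 26 passed in every alternative, and 73 of 78 members were negative in every alternative. The lowest counts, 30 and 31, came from the 6 arrays of the comparison alone and from leaving out the DGCR8-deficient or the wild type control of mouse 4. The inhibitor comparison gave 0 members in 27 alternatives. The treated arrays, the fits without DGCR8-deficient mouse 3 and the paired fits without 1 mouse were added after seeing the data. No named member that passed reversed its direction. Normexp used the median spot signal, since the files used here hold no mean signal, and the cause of the other changes was not tested.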

Other observations

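The non-member genes whose levels followed the members' array median most closely over 12 arrays were Adat2, a tRNA deaminase subunit (Pearson r = 0.993), Rasgrf2, an exchange factor for Ras (0.991), Dnlz, a mitochondrial chaperone partner (0.990), Ss18l2 (0.988) and Tmem14c, a mitochondrial membrane protein needed for haem synthesis (0.988). The 12 arrays fall into 2 genotypes, so the values are not read apart from the genotype difference, which for the 5 genes was -1.61, -2.14, -1.34, -0.70 and -1.60 (DGCR8-deficient minus wild type controls). Lars2, the mitochondrial leucyl-tRNA synthetase, varied most within groups among the synthetases, at 7.45 ± 2.02 in DGCR8-deficient controls and 7.42 ± 2.08 in wild type controls (SD, n = 3 each).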
